A study of Mus musculus with 9 samples.

Results

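The Rab GTPases are the largest family of small GTPases that direct membrane traffic, and their transcripts were examined in mouse spermatogonia from a vitamin A deficiency study. Probe sets were taken where the platform annotation gave exactly 1 gene symbol that reads Rab, a number and at most 1 letter and 1 further digit. That rule found 132 probe sets for 59 genes among the 45101 probe sets of the Affymetrix mouse array, a chip on which each transcript is read by one or more sets of short probes. Of these, 94 probe sets covering 47 genes passed the filter on low signal and could be tested.

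A Rab protein works as a switch. Bound to GTP it sits on a membrane and recruits effectors such as tethers, motors and adaptors, and bound to GDP it is extracted into the cytosol by a GDP dissociation inhibitor. Guanine nucleotide exchange factors turn a Rab on, GTPase-activating proteins turn it off, and Rab escort protein presents the new protein for the lipid tail that anchors it. In the seminiferous epithelium, Rab proteins are known for the turnover of junctions between Sertoli cells and germ cells and for building the acrosome, a Golgi-derived organelle of spermatids.

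The arrays formed 3 groups of 3, all from testes of adult Balb/C mice. The first had 25 weeks and the second 18 weeks of a diet lacking vitamin A (VAD, vitamin A deficiency), and the control group ate a normal diet. Every preparation used testes of 2 mice, enzymatic digestion, overnight plating and sedimentation through albumin, with a stated purity above 90%, so all 3 groups share a night in culture before RNA extraction. Whether each array held its own preparation is not stated, nor is the age or time on diet of the control mice, so p-values measure only the spread between these arrays.

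The arrays differed in ways that the groups do not explain. VAD 25-week replicate 3 and control replicate 3, called the dim pair, had trimmed mean signals of 23.3 and 23.0, against 55.6 to 186 on the other 7. The array-to-array correlation was 0.889 within the dim pair and 0.776 to 0.809 between it and the others. VAD 25-week replicates 1 and 2 carried strong poly-A control signals, means of 270 and 338 against 4.97 to 10.6 elsewhere. No control array shares that feature, so outside the dim pair this signal and the deficiency cannot be told apart. The dim pair holds one array of each of 2 groups and was fitted as a block, a choice made after a fit on group alone had called 0 of all 27022 probe sets in each comparison. Values below are log2 signals after quantile normalization, which gives all arrays one distribution, and a call is a Benjamini-Hochberg adjusted p under 0.05 in limma over all 27022 probe sets.

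The labelled cell type was checked against its markers. Of 12 germ cell and spermatogonial markers on the array 11 passed the filter, among them Ddx4, Dazl, Id4, Dmrtb1, Sohlh2, Zbtb16, Gfra1, Kit and Stra8, and Lin28a did not. Their summed signal was 1378 to 13894 at 25 weeks and 4253 to 6771 at 18 weeks, against 1374 to 5272 in controls. Median signals over all arrays were highest for Ddx4 (3011) and Dmrtb1 (1508). They were low for Zbtb16 (10.4), Kit (14.8), Stra8 (14.1), Sohlh1 (9.02) and Uchl1 (18.0). Passing the filter is not a measure of purity, which was not tested. At 25 weeks Id4 and Kit were called higher and Dmrtb1 lower, and at 18 weeks Id4 was called higher. All 7 pachytene spermatocyte and 11 spermatid markers passed the filter too. Their highest median signals, 14310 for Ldhc and 4663 for Prm1, were above that of any spermatogonial marker. At 25 weeks 2 of the pachytene genes were called higher and 3 lower, at 18 weeks 2 higher and 1 lower. Of the spermatid genes 2 were called lower at 25 weeks and none at 18 weeks. The summed spermatid signal was 1581 to 29854 at 25 weeks and 9930 to 14722 at 18 weeks, against 2363 to 15522 in controls, and the summed pachytene signal was 14766 to 42046 in VAD 25-week arrays, 22382 to 27210 in VAD 18-week arrays and 14690 to 24730 in control arrays. Sertoli cell markers moved with the diet. Their summed signal over 15 of 16 genes on the array was 943 to 5120 at 25 weeks and 1595 to 2993 at 18 weeks, against 247 to 497 in controls. Of these 15 genes, 10 were called higher at 25 weeks and 8 at 18 weeks, with none lower. At 25 weeks, 2 of 5 Leydig cell and 5 of 7 macrophage markers were also called higher, and none of 3 peritubular markers. For comparison with every list here, 8.54% of all probe sets were called higher and 6.32% lower at 25 weeks. At 18 weeks these shares were 1.33% and 0.133%. The tested markers had all passed the filter on signal, so none could be at 0 on every array. Sox9 (Sertoli), Hsd17b3 (Leydig), C1qa, C1qc and Cd68 (macrophage), and Tagln and Cnn1 (peritubular) did not pass it. The part of these cell types in the Rab results below was not tested. In bulk RNA fewer cells of a type and less RNA per cell cannot be told apart.

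Promoters were read from the RefSeq tables of build GRCm38.p6 as the 250 bases before the annotated start, and 48 of the 59 genes had at least 1, 60 promoters in all. The GC box GGGCGG, searched on both strands, stood in 40 of 60 (66.7%), against 32.7% of 32851 promoters of all genes. The CCAAT box was in 24 (40%, against 33.8%), and the retinoid receptor half-site AGGTCA in 3 (5%, against 14%). The E-box CACGTG was in 5 (8.33%, against 6.02%), and the cAMP response element TGACGTCA in 2 (3.33%, against 1.55%). These matches are descriptions of the letters, not of bound sites. The 3 promoters below belong to Rab11a and Rab11b, close paralogs whose probe sets were called in opposite directions, and to Rab8b, which acts with them in delivery to the surface. Capitals mark GC box and CCAAT box letters on either strand. The Rab11a promoter, chr9:64737757-64738006 on the minus strand, held 2 GC boxes and 1 CCAAT box. The Rab11b promoter, chr17:33760487-33760736 on the minus strand, held 1 CCAAT box and no GC box. The Rab8b promoter, chr9:66919706-66919955 on the minus strand, held 2 GC boxes and 1 CCAAT box, and at 64.4% G and C it was richer in these bases than the promoters of Rab11a (53.6%) and Rab11b (48.4%).
Rab11a: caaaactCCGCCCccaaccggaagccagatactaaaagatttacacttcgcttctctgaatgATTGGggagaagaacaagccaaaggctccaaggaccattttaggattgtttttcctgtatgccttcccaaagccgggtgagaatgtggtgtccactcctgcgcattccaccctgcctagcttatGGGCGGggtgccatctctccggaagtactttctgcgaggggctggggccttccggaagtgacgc
Rab11b: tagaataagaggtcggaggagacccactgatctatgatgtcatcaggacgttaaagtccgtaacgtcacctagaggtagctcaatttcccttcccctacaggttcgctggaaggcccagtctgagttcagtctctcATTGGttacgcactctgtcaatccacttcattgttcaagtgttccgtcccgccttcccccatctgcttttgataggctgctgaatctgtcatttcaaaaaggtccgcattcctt
Rab8b: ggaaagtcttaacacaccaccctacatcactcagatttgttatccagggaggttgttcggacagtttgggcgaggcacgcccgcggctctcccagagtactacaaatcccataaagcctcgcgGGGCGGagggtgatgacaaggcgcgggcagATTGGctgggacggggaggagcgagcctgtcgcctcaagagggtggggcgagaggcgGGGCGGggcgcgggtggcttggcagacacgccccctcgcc

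At 25 weeks of deficiency, 13 of the 94 Rab probe sets were called against control, 9 higher and 4 lower. That share, 13.8%, stands beside 14.9% of all probe sets (8.54% higher and 6.32% lower), so the family was not called more often than the array as a whole. The 13 probe sets belong to 11 genes. Rab11a, Rab14, Rab8b, Rab2a, Rab2b, Rab7 and Rab40c each had a probe set called higher, and Rab11b, Rab20, Rab22a and Rab6a each had one called lower. Of these, Rab14 1419246_s_at, Rab2a 1419945_s_at, Rab2b 1452668_x_at and Rab6a 1447776_x_at carry a suffix that marks probes open to cross-hybridization. Each gene was represented by its brightest probe set, with suffixed ones used last. On that rule 6 of 47 genes were called, of which Rab11a, Rab8b, Rab7 and Rab40c were higher and Rab11b and Rab20 lower. For Rab11a the rule passed over a brighter probe set with a suffix, which was not called. The median log2 change was 0.06 over the Rab probe sets and -0.01 over all. Among representatives the change ran from -1.27 for Rab20 to 1.90 for Rab11a with a median SE of 0.27, and 31 of 47 lay within 0.5 of no change. The 3 VAD 25-week arrays stood wholly above the 3 controls at 10 Rab probe sets and wholly below at 6, where 16.2% of all probe sets did one or the other. In the fit on group alone no Rab probe set was called at any time. At 25 weeks 10 had an unadjusted p under 0.05 in limma, beside 3209 of all 27022 probe sets.

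At 18 weeks, 2 of 94 Rab probe sets were called, both higher (2.13%, against 1.47% of all probe sets called and 1.33% called higher), one of Rab11a and one of Rab2a. The median change was again 0.06 over the Rab probe sets and -0.01 over all. Representatives ran from -0.85 for Rab19 to 1.50 for Rab31, neither of them called. The VAD 18-week arrays stood wholly above the controls at 15 Rab probe sets and wholly below at 6, against 19.4% of all probe sets. Because no VAD 18-week array is in the dim pair, these fitted values take the dim offset from the other groups and are not plain differences of group means.

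**Figure D1:**
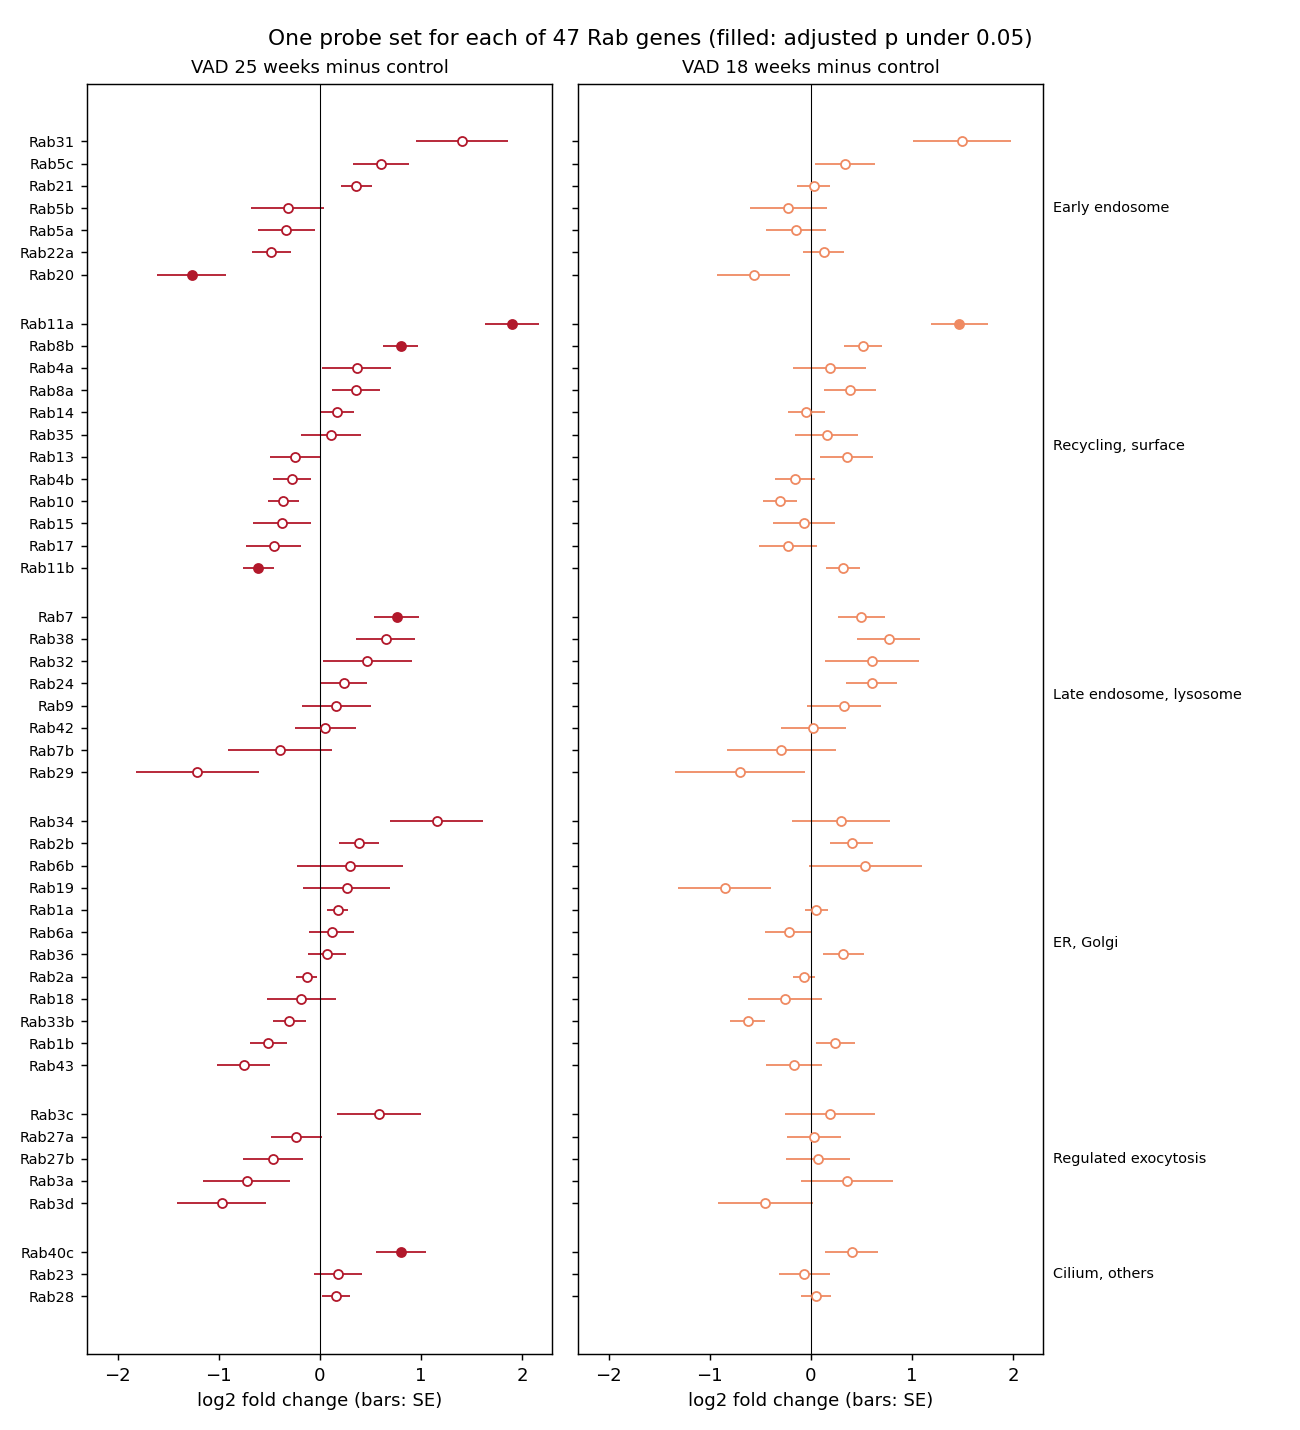
Log2 difference from control of the representative probe set of each of the 47 tested Rab genes, ordered by role, with VAD 25 weeks and VAD 18 weeks side by side. Bars are SE from limma with the dim-pair block and filled symbols are adjusted p under 0.05. At 25 weeks 6 genes are filled, with Rab11a highest at 1.90 and Rab20 lowest at -1.27, and at 18 weeks only Rab11a is.

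The genes of recycling and surface delivery held the strongest change. Of 12 genes tested out of 14 on the array, 2 were called higher and 1 lower at 25 weeks, with a median of -0.07. At 18 weeks 1 was called higher, with a median of 0.17. Of all probe sets, 8.54% were called higher and 6.32% lower at 25 weeks, and 1.33% higher at 18 weeks. Rab11a marks the recycling endosome, from which receptors and junction proteins return to the surface. Its probe set 1434549_at read 6.37, 6.48 and 5.01 in VAD 25-week replicates 1 to 3, 5.90, 5.65 and 5.83 in VAD 18-week arrays, and 4.08, 4.16 and 3.93 in control arrays. All 6 deficient arrays lay above all 3 controls, and the lowest of the 6 was the dim VAD 25-week array. The deposited signals behind these values were 228, 190 and 15.5 at 25 weeks, 71.2, 41.8 and 62.9 at 18 weeks, and 9.45, 10.5 and 7.44 in controls. The difference was 1.90 ± 0.27 at 25 weeks (SE, limma adjusted p = 0.00175) and 1.47 ± 0.28 at 18 weeks (limma adjusted p = 0.0339).

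The 25-week call for Rab11a was kept in 9 of 9 fits that each left out 1 array, with differences of 1.75 to 2.31. It was lost in the fit on group alone (limma adjusted p = 0.136). Leaving out both poly-A arrays left 1 VAD 25-week array, and the difference was then that within the dim pair, 1.08. The mean of the 15 Sertoli markers also separated the deficient arrays from controls. It was 5.77 to 6.44 at 25 weeks and 5.67 to 6.89 at 18 weeks, against 4.37 to 4.66 in controls. The mean of the 11 tested spermatogonial markers did so too, at 6.21 to 6.53, 6.25 to 6.42 and 6.08 to 6.16 in the same order. Leydig, macrophage and peritubular means stood above all controls at 25 weeks but not at 18 weeks. The part of these cell types in the Rab11a values was not tested. The 18-week call was kept only in the fits without control replicate 3 or VAD 25-week replicate 3, and was lost without any other single array (differences of 1.30 to 1.54, limma adjusted p of 0.0626 to 0.154). A second Rab11a probe set, 1449256_a_at, had far smaller differences. It read 10.47, 10.25 and 9.26 at 25 weeks, 9.84, 9.85 and 9.93 at 18 weeks, and 9.83, 9.92 and 9.56 in controls, a 25-week difference of 0.22 ± 0.15 (limma adjusted p = 0.355). Its groups overlapped at both times, so in the main fit the call for Rab11a rests on 1 of its 2 probe sets. With the dim pair left out, 1449256_a_at was called higher at 25 weeks, at 0.49 (limma adjusted p = 0.023).

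Rab11b, the close paralog of Rab11a, was called in the other direction at 25 weeks. Probe set 1423448_at read 7.89, 7.70 and 8.87 in VAD 25-week arrays, 8.98, 8.82 and 8.60 in VAD 18-week arrays, and 8.68, 8.45 and 9.16 in control arrays. VAD 25-week replicates 1 and 2 were the lowest of all 9, while the dim VAD 25-week array lay inside the control range. The difference was -0.61 ± 0.16 (limma adjusted p = 0.0235), and on the deposited scaling, where the median of all probe sets moved by 0.93, it turned to 0.33 (limma adjusted p = 0.508). The call was lost without control replicate 1 (-0.50, limma adjusted p = 0.104) or control replicate 2 (-0.63, 0.0624). It was also lost without VAD 25-week replicate 1 (-0.62, 0.0713) or VAD 25-week replicate 2 (-0.51, 0.108). Without both poly-A arrays the difference was -0.29. A second probe set of Rab11b differed by -0.18 and was not called.

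Rab8b, which takes part in delivery from the trans-Golgi and recycling endosome to the surface, was called higher at 25 weeks. Probe set 1426799_at read 8.74, 8.95 and 9.52 at 25 weeks, 8.42, 8.21 and 8.90 at 18 weeks, and 7.96, 7.90 and 8.95 in controls. The dim array was the highest of its group at 25 weeks and in controls, and the groups overlapped because the dim control lay above VAD 25-week replicate 1. The difference was 0.80 ± 0.18 (limma adjusted p = 0.0129). It missed the threshold without control replicate 1 (0.78, 0.0511), control replicate 2 (0.75, 0.0517) or VAD 25-week replicate 2 (0.71, 0.0648). Without both poly-A arrays it was 0.57. Its relative Rab8a, known for traffic to cilia and the surface, was not called and read 7.05, 7.18 and 8.26 at 25 weeks, 7.65, 7.39 and 6.96 at 18 weeks, and 7.15, 7.11 and 7.16 in controls. The Rab8a difference in the main fit was 0.36 ± 0.24 at 25 weeks (limma adjusted p = 0.341). With a block of 3 array sets (the dim pair, the poly-A arrays and the rest), Rab8a was called higher at 1.09. That value is the difference within the dim pair, and replicates 1 and 2 differed by -0.01.

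Rab14 moves cargo between the Golgi and endosomes, and 1 of its 6 tested probe sets was called. That one, 1419246_s_at, read 9.18, 9.06 and 8.69 at 25 weeks, 8.65, 8.75 and 8.63 at 18 weeks, and 7.90, 8.10 and 7.90 in controls. Both deficient groups lay wholly above the controls, by 1.01 ± 0.13 at 25 weeks (limma adjusted p = 0.00127) and 0.62 ± 0.14 at 18 weeks (limma adjusted p = 0.0533). The 25-week value stayed between 0.92 and 1.12, and called, when any 1 array was left out. The 6 Rab14 probe sets ranged from 0.13 to 1.09, and the representative, 1415686_at, differed by 0.17.

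Rab13, a regulator of tight junction assembly in epithelia, was not called. It read 4.44, 4.38 and 4.87 at 25 weeks, 4.998, 5.14 and 4.80 at 18 weeks, and 4.38, 4.80 and 5.26 in controls, a 25-week difference of -0.25 ± 0.25 (limma adjusted p = 0.535). The remaining tested genes of the group, Rab4a, Rab4b, Rab10, Rab15, Rab17 and Rab35, lay between -0.46 and 0.36 at 25 weeks and none was called.

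**Figure D2:**
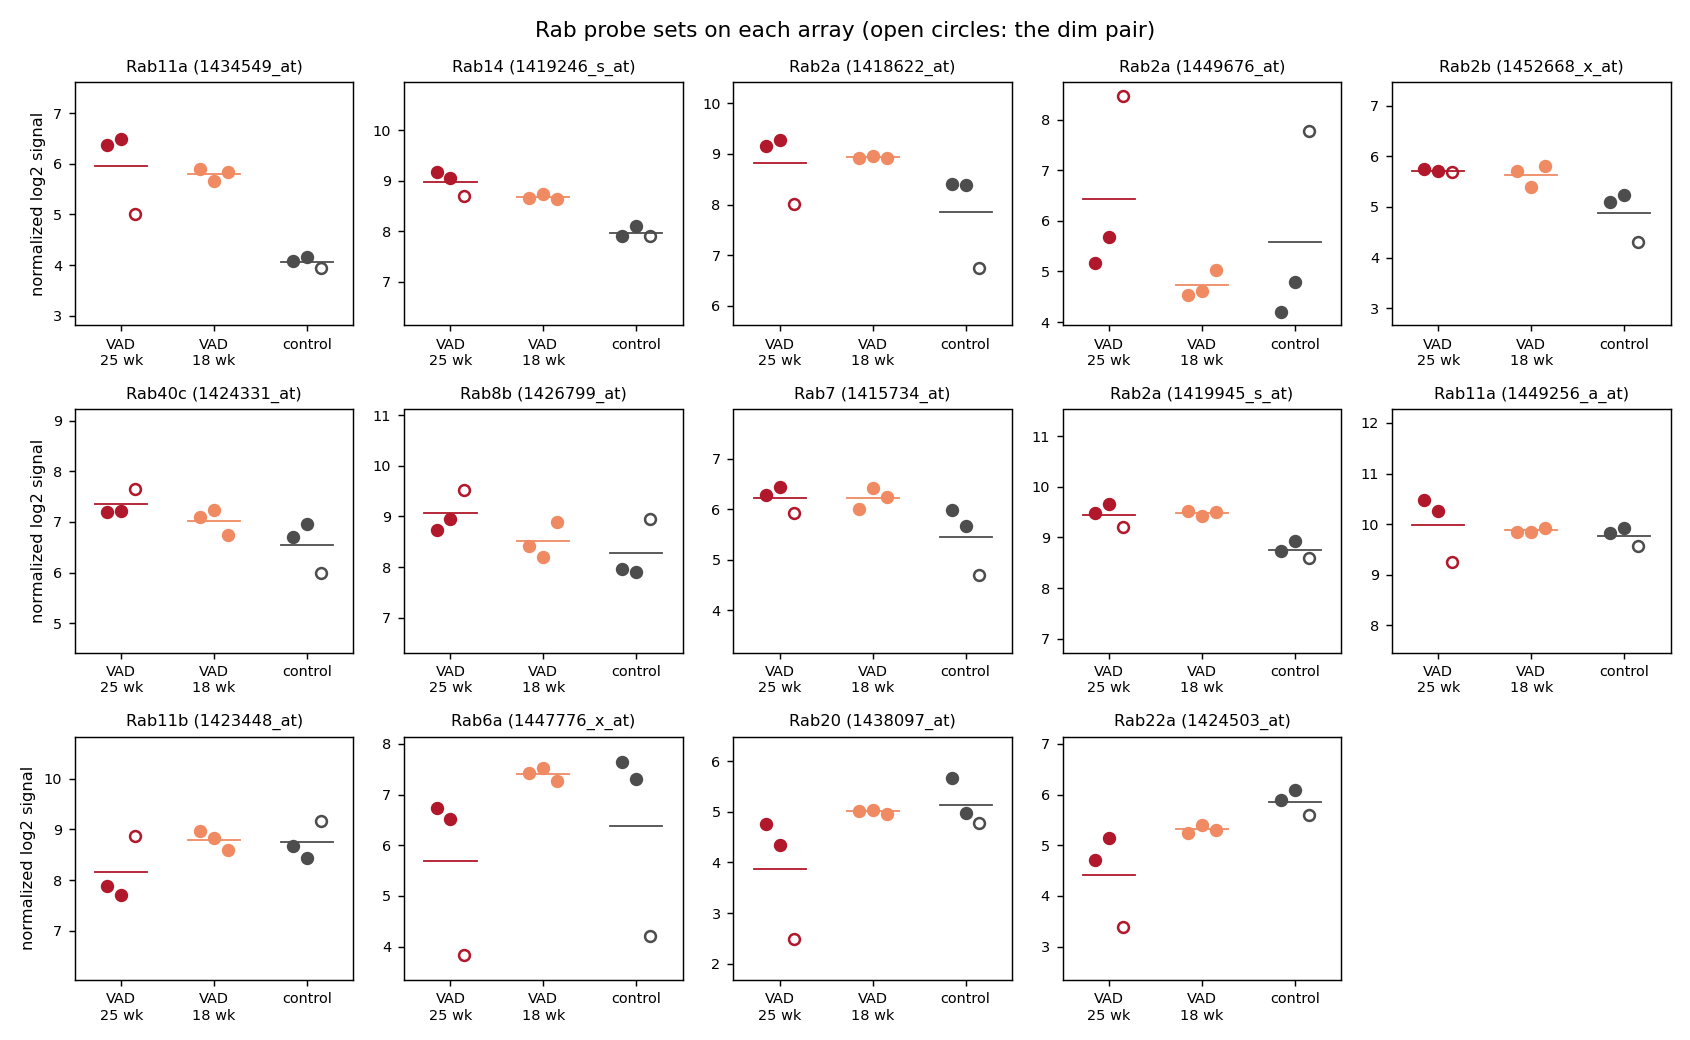
Normalized log2 signal on each of the 9 arrays of the 13 Rab probe sets called at 25 weeks and of the second Rab11a probe set, with VAD 25 weeks on the left, VAD 18 weeks in the middle and control on the right. Lines are group means, open circles are the dim pair and all panels span the same number of log2 units. Rab11a (1434549_at) and Rab14 (1419246_s_at) show no overlap of either deficient group with control, whereas for Rab8b and Rab6a the dim pair stands apart from the rest of its groups.

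The genes of the endoplasmic reticulum, Golgi and early secretory route were tested for 12 of 16 genes. No representative was called at either time, with medians of 0.09 at 25 weeks and -0.00 at 18 weeks. Of the 31 probe sets of these genes, 4 were called higher and 1 lower at 25 weeks, against 8.54% and 6.32% of all. Rab2a controls traffic between the endoplasmic reticulum and the Golgi, and 3 of its 7 probe sets were called higher. Probe set 1418622_at read 9.16, 9.28 and 8.01 at 25 weeks, 8.92, 8.96 and 8.92 at 18 weeks, and 8.40, 8.39 and 6.75 in controls. The dim arrays were the lowest of their groups, which made the groups overlap, and the difference with the block was 0.97 ± 0.13 (limma adjusted p = 0.00158), called in all 9 fits without 1 array. Probe set 1419945_s_at read 9.48, 9.66 and 9.20 at 25 weeks, 9.53, 9.42 and 9.50 at 18 weeks, and 8.74, 8.94 and 8.59 in controls. Both deficient groups were wholly above the controls, by 0.69 ± 0.12 at 25 weeks (limma adjusted p = 0.00415) and 0.62 ± 0.13 at 18 weeks (limma adjusted p = 0.0382).

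Without both poly-A arrays the 25-week difference of 1419945_s_at was 0.61. The 25-week call of this probe set was kept in all 9 fits without 1 array. Its 18-week call was kept only without control replicate 3 or VAD 25-week replicate 3 and was lost without any other single array (0.54 to 0.68, limma adjusted p of 0.0728 to 0.173). The third called probe set of Rab2a, 1449676_at, read 5.17, 5.68 and 8.47 at 25 weeks, 4.54, 4.61 and 5.03 at 18 weeks, and 4.20, 4.79 and 7.78 in controls. Here the dim arrays were by far the highest, the difference was 0.85 ± 0.25 (limma adjusted p = 0.0413), and it was called in 3 of 9 fits without 1 array. It was lost without control replicate 1 or 3, VAD 18-week replicate 2, or any VAD 25-week array (0.66 to 0.97, limma adjusted p of 0.0525 to 0.176).

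The representative Rab2a probe set, 1418621_at, went with none of these. It read 9.57, 9.59 and 9.62 at 25 weeks, 9.66, 9.61 and 9.75 at 18 weeks, and 9.77, 9.76 and 9.64 in controls, a difference of -0.13 ± 0.11 (limma adjusted p = 0.441). Across the 7 probe sets of Rab2a the 25-week difference ran from -0.40 to 1.19. The files do not say which transcript forms each probe set reads.

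Rab2b, the paralog of Rab2a, had 1 of 4 probe sets called higher at 25 weeks. Probe set 1452668_x_at read 5.74, 5.71 and 5.69 at 25 weeks, 5.71, 5.39 and 5.81 at 18 weeks, and 5.09, 5.24 and 4.31 in controls. Both deficient groups lay above every control, and the 25-week difference was 0.83 ± 0.24 (limma adjusted p = 0.0374). It was called only without VAD 18-week replicate 2 or 3 among the 9 fits, and the other 7 gave 0.56 to 0.95 (limma adjusted p of 0.0516 to 0.115). The representative 1452667_at differed by 0.39 (limma adjusted p = 0.211).

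Rab6a directs retrograde traffic through the Golgi, and 1 of its probe sets was called lower at 25 weeks. Probe set 1447776_x_at read 6.73, 6.52 and 3.84 at 25 weeks, 7.43, 7.52 and 7.27 at 18 weeks, and 7.65, 7.32 and 4.21 in controls. The dim arrays were lowest by far, and within the dim pair and within replicates 1 and 2 the VAD 25-week arrays were below the controls. The difference was -0.69 ± 0.19 (limma adjusted p = 0.0317), it turned to 0.30 on the deposited scaling (limma adjusted p = 0.560), and the representative 1448305_at differed by 0.12. The call was lost without control replicate 1 (-0.55, 0.134), control replicate 2 (-0.74, 0.0691) or VAD 18-week replicate 2 (-0.69, 0.0501). It was also lost without VAD 25-week replicate 1 (-0.70, 0.0959) or VAD 25-week replicate 2 (-0.59, 0.141). Without both poly-A arrays the difference was -0.36.

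Rab6b, a paralog of Rab6a known mainly from neurons, separated the dim pair from every other array. Its probe set 1455924_at had deposited signals of 5.97, 24.8 and 3187 at 25 weeks, 5.07, 1.87 and 25.0 at 18 weeks, and 1.55, 3.08 and 4008 in controls. The arrays at 3187 and 4008 are the dim pair, whose average signal is the lowest of the study. On the normalized scale the dim pair stood 9.50 above the others, the largest such gap of all 27022 probe sets. With the pair as a block, the 25-week difference was 0.30 ± 0.53 (limma adjusted p = 0.744), and no other Rab6b probe set reached a signal above 29.2 on any array. What sets the pair apart at this probe set was not tested.

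Across the family, 34 of 94 Rab probe sets (36.2%) differed by more than 1 log2 unit between the dim pair and the other arrays, 13 above and 21 below, near the 38% of all probe sets. The remaining genes of the secretory group were not called in the main fit. With the block of 3 array sets, probe sets of Rab34 (2.45), Rab18 (1.22) and Rab43 (-1.49) were called at 25 weeks. Rab34, which is known for lysosome positioning and ciliogenesis, differed by 1.16 ± 0.46 at 25 weeks (limma adjusted p = 0.114). Rab1a and Rab1b, which act between the endoplasmic reticulum and the Golgi, differed by 0.18 (limma adjusted p = 0.279) and -0.51 (limma adjusted p = 0.0821). Rab18, Rab19, Rab33b, Rab36 and Rab43 lay between -0.76 and 0.26 at 25 weeks.

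Of the early endosome genes, all 7 on the array were tested, and at 25 weeks 1 was called lower and none higher, with a median of -0.32. Over their 13 probe sets 2 were lower at 25 weeks, against 6.32% of all probe sets. None was called at 18 weeks (1.47% of all), when the median was 0.03. Rab20, which takes part in phagosome maturation and is known to respond to hypoxia, was one of the 2. Its only tested probe set, 1438097_at, read 4.76, 4.35 and 2.50 at 25 weeks, 5.02, 5.04 and 4.96 at 18 weeks, and 5.67, 4.97 and 4.77 in controls. All VAD 25-week arrays were below all controls, though replicate 1 and the dim control nearly met. The difference was -1.27 ± 0.34 (limma adjusted p = 0.0297). It missed the threshold without control replicate 1 (-1.21, 0.0948), control replicate 3 (-0.76, 0.111), VAD 25-week replicate 2 (-1.29, 0.084) or VAD 25-week replicate 3 (-0.76, 0.0945).

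Rab22a, which sorts cargo from early endosomes, had 1 of 4 probe sets called lower. Probe set 1424503_at read 4.72, 5.14 and 3.39 at 25 weeks, 5.24, 5.39 and 5.31 at 18 weeks, and 5.89, 6.10 and 5.60 in controls. Both deficient groups lay wholly below the controls, by -1.45 ± 0.27 at 25 weeks (limma adjusted p = 0.00631) and -0.87 ± 0.29 at 18 weeks (limma adjusted p = 0.161). The 25-week call was kept in all 9 fits without 1 array, with values of -1.68 to -1.07. Without both poly-A arrays the difference was -2.21. The representative 1451379_at differed by -0.48 (limma adjusted p = 0.119), or by -0.76 with the dim pair left out (limma adjusted p = 0.0175).

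Rab31, which traffics between the trans-Golgi and endosomes, had large differences that were not called in the main fit. Probe set 1416165_at read 5.42, 5.23 and 6.33 at 25 weeks, 5.02, 6.40 and 5.96 at 18 weeks, and 4.96, 4.39 and 3.41 in controls. Every deficient array was above every control, but the controls spread widely, and the difference was 1.41 ± 0.45 at 25 weeks (limma adjusted p = 0.0589) and 1.50 ± 0.48 at 18 weeks (limma adjusted p = 0.153). With a block of 3 array sets, where the 25-week difference rests on the dim pair, 1416165_at was called at 2.92. The second Rab31 probe set differed by -0.46 at 25 weeks in the main fit. Rab5a, the Rab that governs early endosome fusion, read 6.20, 6.11 and 5.98 at 25 weeks, 5.73, 6.20 and 6.38 at 18 weeks, and 6.02, 6.01 and 7.26 in controls. These overlapped, with a 25-week difference of -0.33 ± 0.28 (limma adjusted p = 0.461). With the block of 3 array sets Rab5a was called lower at -1.28. Rab5b (-0.32), Rab5c (0.60) and Rab21 (0.36) were not called in the main fit.

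Of the genes of late endosomes, lysosomes and related organelles, 8 of 9 were tested, with 1 called higher at 25 weeks and a median of 0.20. None was called at 18 weeks, when the median was 0.42. Of all probe sets, 8.54% were called higher at 25 weeks and 1.33% at 18 weeks. Rab7 directs late endosomes and phagosomes to lysosomes. Its representative 1415734_at read 6.28, 6.44 and 5.92 at 25 weeks, 5.99, 6.42 and 6.23 at 18 weeks, and 5.99, 5.67 and 4.70 in controls. The dim VAD 25-week array lay just below the highest control, and the difference was 0.76 ± 0.22 (limma adjusted p = 0.0392). It was kept only without control replicate 1 or VAD 18-week replicate 1, and the other 7 fits without 1 array gave 0.53 to 0.87 (limma adjusted p of 0.0536 to 0.122). The other Rab7 probe set, 1448159_at, pointed the other way, at -0.59 (limma adjusted p = 0.12) or, without the dim pair, at -0.92 (limma adjusted p = 0.0154), so the 2 probe sets give Rab7 no single direction. Rab29, Rab32 and Rab38, of which Rab32 and Rab38 serve melanosomes and related organelles, differed by -1.21, 0.47 and 0.65 and were not called. Rab7b, Rab9, Rab24 and Rab42 lay between -0.39 and 0.23.

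Of the genes of regulated exocytosis, 5 of 9 were tested and none was called at either time, over 10 probe sets. Of all probe sets, 14.9% were called at 25 weeks and 1.47% at 18 weeks. Medians were -0.47 at 25 weeks and 0.07 at 18 weeks. Rab3a, known from synaptic vesicles and the sperm acrosome reaction, read 5.87, 6.01 and 9.96 at 25 weeks, 7.12, 6.55 and 7.87 at 18 weeks, and 6.04, 7.90 and 10.07 in controls. The dim pair was the highest of all 9 arrays, and the 25-week difference was -0.73 ± 0.43 (limma adjusted p = 0.282). The only tested probe sets of Rab3a (1459980_x_at) and Rab27b (1443764_x_at) carry the suffix that marks probes open to cross-hybridization. At 1459980_x_at the dim pair stood 3.25 above the other arrays. Rab27a, which tethers secretory lysosomes, read 6.78, 6.43 and 5.56 at 25 weeks, 7.09, 6.81 and 6.28 at 18 weeks, and 6.65, 6.46 and 6.36 in controls, with overlapping groups and a 25-week difference of -0.23 ± 0.25 (limma adjusted p = 0.57). Its paralog Rab27b read 3.68, 4.31 and 3.94 at 25 weeks, 4.29, 4.57 and 4.80 at 18 weeks, and 4.67, 4.34 and 4.31 in controls. All VAD 25-week values of Rab27b reached no higher than the lowest control, and the difference was -0.47 ± 0.29 (limma adjusted p = 0.316). Rab3c and Rab3d differed by 0.59 and -0.97.

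Among Rab23, Rab28 and Rab40c, the tested genes outside the groups above, Rab40c was called higher at 25 weeks (8.54% of all probe sets). Rab40c carries a SOCS box, which links it to ubiquitin ligases. Probe set 1424331_at read 7.20, 7.22 and 7.64 at 25 weeks, 7.09, 7.23 and 6.75 at 18 weeks, and 6.70, 6.95 and 5.99 in controls. All VAD 25-week arrays were above all controls, by 0.80 ± 0.25 (limma adjusted p = 0.0489). The gap was 1.65 in the dim pair and 0.38 in replicates 1 and 2, and the call was kept only without control replicate 2 among the 9 fits without 1 array, the others giving 0.38 to 0.93 (limma adjusted p of 0.0546 to 0.218). A second Rab40c probe set differed by -0.24, and Rab23 and Rab28 by 0.18 and 0.16.

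The 25-week differences were also taken apart by array set. For all 13 called probe sets the VAD 25-week value stood on the same side of control in the dim pair and in replicates 1 and 2. The sizes differed. Rab11a was 1.08 above control in the dim pair and 2.31 in replicates 1 and 2, while Rab20 was -2.27 and -0.76 and Rab7 was 1.22 and 0.53. Since the fit that called them averages both sets, agreement in sign is no independent check. Leaving out the dim pair gave 12 called Rab probe sets, 6 higher and 6 lower, of which 8 are among the 13. In that fit 15.6% of all probe sets were called.

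**Figure D3:**
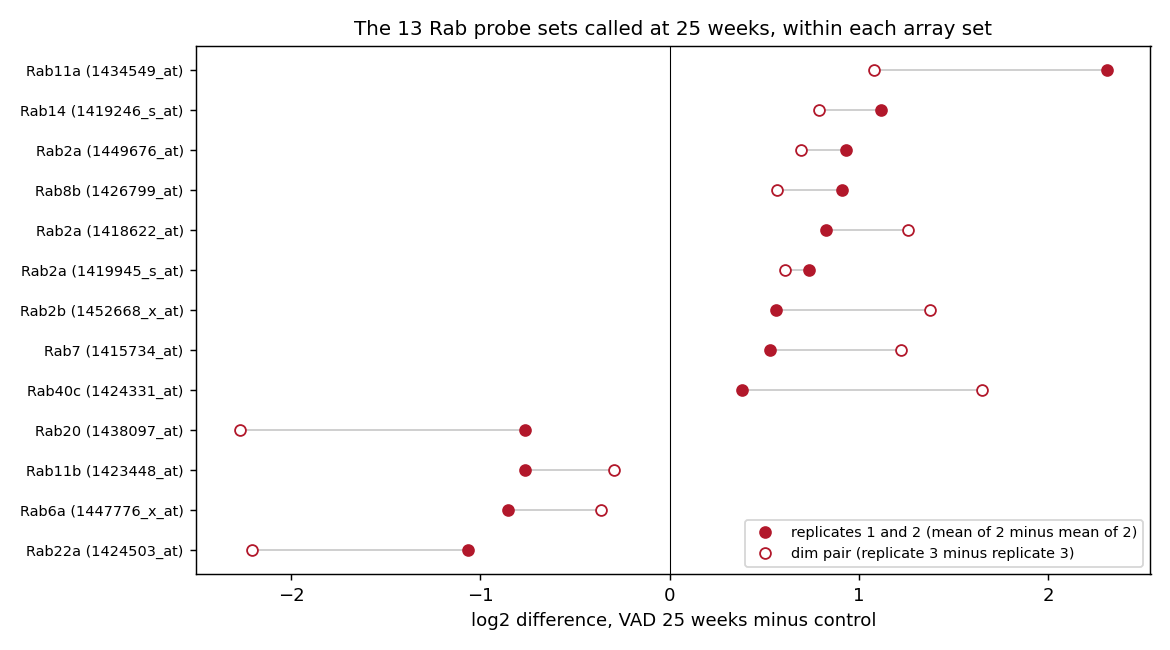
Difference of VAD 25 weeks from control within the dim pair (1 array each) and within replicates 1 and 2 (2 arrays each), in normalized log2 units, for the 13 Rab probe sets called at 25 weeks. Each probe set keeps its sign in both sets, and the sizes differ most for Rab20, Rab11a and Rab40c.

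The longer deficiency was set against the shorter. None of the 94 Rab probe sets was called between VAD 25 weeks and VAD 18 weeks (0% of all probe sets either), while 10 Rab and 3119 of all probe sets had an unadjusted p under 0.05 in limma. Representatives ran from -1.08 for Rab3a to 1.12 for Rab19. The smallest adjusted p was that of Rab11b, lower at 25 weeks by -0.93 ± 0.17 (limma adjusted p = 0.141). With the dim pair left out, Rab11b (-1.01, limma adjusted p = 0.0206) and Rab6a (-0.78, limma adjusted p = 0.0448) were called. For Rab11a the change between the times was 0.43 (limma adjusted p = 0.603), so its 25-week and 18-week values were not shown to differ.

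Probe sets of one gene often went apart. Of 26 Rab genes with more than 1 tested probe set, 17 had both signs at 25 weeks, and the median span between the lowest and highest difference of a gene was 0.81. No gene had probe sets called in both directions, and no gene with several had all of them called. Of the 11 genes with a call, Rab8b and Rab20 had a single tested probe set, and in the other 9 at least 1 further probe set was not called.

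**Figure D4:**
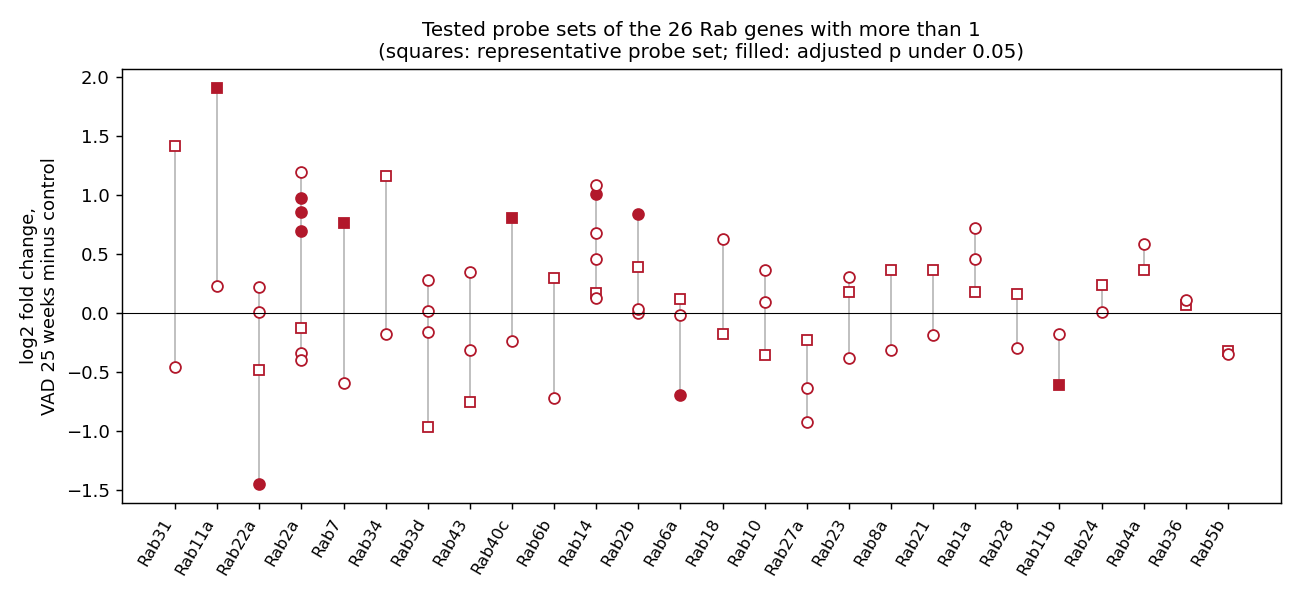
Log2 difference of VAD 25 weeks from control for every tested probe set of the 26 Rab genes with more than 1, in a column per gene, with squares for the representative and filled symbols for adjusted p under 0.05. Rab2a, Rab14 and Rab22a each hold called and uncalled probe sets, and 17 genes have symbols on both sides of 0.

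A further 38 probe sets did not pass the filter, and 12 genes had none that did. These were Rab12, Rab25, Rab26, Rab30, Rab33a, Rab37, Rab39, Rab39b, Rab3b, Rab40b, Rab44 and Rab9b. The mean deposited signals of their probe sets over all 9 arrays were 0.756 to 6.62, the highest for a probe set of Rab12. That probe set, 1427992_a_at, had signals of 27.4, 16.2 and 1.72 at 25 weeks, 1.71, 1.75 and 2.07 at 18 weeks, and 4.52, 3.10 and 1.001 in controls. The 2 highest are the poly-A arrays, and the VAD 25-week and control arrays overlapped. In a limma fit with no filter on signal, none of the 38 was called in any comparison.

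The proteins that work the Rab cycle were examined from lists of their own. Of 10 tested genes for escort, lipid attachment, GDP dissociation inhibition and membrane delivery, 1 was called higher and 1 lower at 25 weeks (median -0.08), and none at 18 weeks. For this list and those that follow, 14.9% of all probe sets were called at 25 weeks (8.54% higher and 6.32% lower) and 1.47% at 18 weeks (1.33% higher). Chml, the autosomal Rab escort protein, rose by 1.73 ± 0.25 at 25 weeks (limma adjusted p = 0.00191) and differed by 1.14 ± 0.27 at 18 weeks (limma adjusted p = 0.0577). Yipf1, a Golgi membrane protein of the family that binds Rabs, fell by 0.70 on the log2 scale at 25 weeks (limma adjusted p = 0.0227).

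Of 35 tested exchange factors, 3 were called higher and 2 lower at 25 weeks (median 0.11; 14.9% of all probe sets called), and 1 higher at 18 weeks (1.47% of all). Dennd5b, a DENN domain exchange factor, rose by 1.64 ± 0.15 at 25 weeks (limma adjusted p = 0.000207) and by 1.08 ± 0.16 at 18 weeks (limma adjusted p = 0.0112). Its relative Dennd5a rose by 0.91 ± 0.14 at 25 weeks (limma adjusted p = 0.00279). Subunits of the TRAPP complexes, which activate Rab1 and Rab11, were called in both directions, with Trappc3 at 0.89 ± 0.16 (limma adjusted p = 0.00544) and Trappc9 at -1.04 ± 0.16 (limma adjusted p = 0.00274).

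Of 33 tested GTPase-activating proteins, 3 were called higher and 1 lower at 25 weeks (median -0.07; 14.9% of all probe sets called), and none at 18 weeks (1.47% of all). Tbc1d24 differed by 1.36 ± 0.37 (limma adjusted p = 0.0309), Tbc1d12 by 0.59 ± 0.17 (limma adjusted p = 0.0379), Rabgap1l by 0.51 ± 0.15 (limma adjusted p = 0.0389) and Tbc1d25 by -0.93 ± 0.28 (limma adjusted p = 0.044). These carry the TBC domain that speeds GTP hydrolysis by Rabs, although Tbc1d24 lacks residues that the catalytic members use.

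Of 48 tested effectors, 11 were called higher and 2 lower at 25 weeks (median 0.21; 8.54% and 6.32% of all probe sets), and 4 higher at 18 weeks (median 0.16; 1.33% of all). Bicd2, an adaptor that joins Rab6 vesicles to dynein, rose by 1.61 ± 0.20 at 25 weeks (limma adjusted p = 0.000916) and by 1.08 ± 0.21 at 18 weeks (limma adjusted p = 0.0341). Inpp5b, a phosphoinositide phosphatase that binds several Rabs, rose by 2.18 ± 0.35 (limma adjusted p = 0.00303) and by 1.84 ± 0.37 at those times (limma adjusted p = 0.0382). Uso1, the Golgi tether p115 that Rab1 recruits, rose by 1.62 ± 0.23 at 25 weeks (limma adjusted p = 0.0018), and Rabepk, a Rab9 effector, fell by 0.73 on the log2 scale (limma adjusted p = 0.00301).

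Golga2, the Golgi matrix protein GM130, rose by 0.47 ± 0.14 at 25 weeks (limma adjusted p = 0.0394) and by 0.92 ± 0.14 at 18 weeks (limma adjusted p = 0.0133). Sytl4, a granule protein that binds Rab27, rose by 1.70 ± 0.37 at 25 weeks (limma adjusted p = 0.0118) and by 1.96 ± 0.39 at 18 weeks (limma adjusted p = 0.0375). Rab11fip2, an adaptor of Rab11 chosen after its value was seen, rose by 0.62 ± 0.13 at 25 weeks (limma adjusted p = 0.00843). The other 4 Rab11 adaptors on the list, Rab11fip1, Rab11fip3, Rab11fip4 and Rab11fip5, differed by -0.87, -0.64, -0.27 and -0.20 and were not called. None of the genes on these 4 lists was called between VAD 25 weeks and VAD 18 weeks. All calls on these lists were lost in the fit on group alone. Sertoli, Leydig, macrophage, spermatogonial, pachytene and spermatid markers also held calls at 25 weeks. At 18 weeks Sertoli, spermatogonial and pachytene markers did. The part of these cell types in the calls on these lists was not tested.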

How the data were processed

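Per the labels' protocols, 100 ng of total RNA was amplified in 2 cycles and hybridized. The submitters' processing notes name MAS5, and the deposited table holds 1 intensity for each probe set and array, not logged. Neither its version nor a scaling target is given in the sources used here. Each value was transformed as log2(signal + 3.2592), the pseudocount being the 25th percentile of all signals. This understates changes of low signals. Arrays were then quantile normalized. Without the 64 control probe sets, those whose mean reached the 40th percentile were tested, 27022 of 45101. Genes came from the platform annotation, where 34958 probe sets had 1 symbol, 932 had several and 9211 had none. All 59 Rab genes were found in the RefSeq gene table by gene identifier. The brightest tested probe set stands for its gene, with suffixed ones (_s_, _x_, _a_) used last.

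The tests used limma 3.58.1 (R 4.3.3; lmFit, and eBayes with a variance trend) on all 9 arrays, with group and the dim-pair block (trimmed mean, 2% from each end, under 0.5 of the median), 5 residual degrees of freedom and Benjamini-Hochberg adjustment. The procedure was run on simulated data built from the same block model with independent noise, which cannot test the choice of block. Members, lists, named genes and the block were chosen with earlier results of these data known. Named were every Rab gene with a called probe set, 8 fixed Rab genes (Rab3a, Rab5a, Rab7, Rab8a, Rab11a, Rab13, Rab27a and Rab27b) and up to 4 called members per list with the smallest p. Other Rab genes named with values, and the Rab11fip genes, were chosen after their values were seen. The number of arrays limits the precision.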

Additional observations from a re-analysis of the deposited data

How the results depend on the processing

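With 3 arrays a group and the control group split between bright and dim arrays, the counts moved with the model. In order for VAD 25 weeks against control, VAD 18 weeks against control and VAD 25 weeks against VAD 18 weeks, 13, 2 and 0 Rab probe sets and 6, 1 and 0 Rab genes were called. The matching shares of all probe sets were 14.9%, 1.47% and 0%. Percentages in brackets below are also shares of all probe sets, in the same order. Group as the sole term gave 0 everywhere, also over all probe sets. In that fit 10, 8 and 3 of 94 Rab probe sets had an unadjusted p under 0.05 in limma, beside 3209, 1958 and 1034 of all 27022. A block of 3 array sets gave 23, 4 and 4 probe sets and 12, 1 and 3 genes (18.6%, 3.57% and 6.32%). Leaving out the dim pair gave 12, 4 and 2 probe sets and 5, 1 and 1 genes (15.6%, 3.99% and 1.68%). The deposited scaling gave 40 (all higher), 0 and 5 of 93 probe sets and 21, 0 and 1 genes (39.1%, 0.496% and 6.68%). It turned Rab11b (1423448_at) to 0.33 and Rab6a (1447776_x_at) to 0.30 at 25 weeks. Median centring gave 14 (12 higher and 2 lower, against 9 and 4), 1 and 0 probe sets (13.4%, 1.73% and 0%). No variance trend gave 5, 0 and 0 probe sets and 1, 0 and 0 genes (8.85%, 0% and 0%). Array weights gave 17 (9 higher and 8 lower), 5 and 6 probe sets and 8, 2 and 3 genes (24.4%, 4.02% and 5.74%). A fold of at least 2 gave 4, 1 and 0 probe sets and 2, 1 and 0 genes (6.45%, 0.881% and 0%). No filter gave 9, 1 and 0 of 132 probe sets (7.25%, 0.606% and 0%). A 60th percentile filter gave 14, 4 and 0 of 66 (22.5%, 2.71% and 0%). Leaving out both poly-A arrays was an alternative chosen after seeing the data. It left 1 VAD 25-week array, so its counts are not given. The median over the probe sets of a gene gave 4, 0 and 0 genes, where 15.1%, 1.25% and 0% of all genes were called. The cause of these shifts was not tested.

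A replicate block added to the dim-pair block gave 7, 0 and 0 probe sets and 3, 0 and 0 genes (9.62%, 0.0703% and 0% of all probe sets). Same-numbered arrays did not deviate together in every pair (correlations from -0.00 to 0.69), and not every array correlated best with its own number. The 0.69 is that of the dim pair, both replicate 3. These deviations from group means still hold the dim offset, so they cannot decide whether arrays of the same number belong together. Leaving out 1 array at a time gave 6 to 12, 0 to 4 and 0 to 1 probe sets, and 2 to 5, 0 to 1 and 0 to 1 genes. Of all probe sets, those fits called 6.62% to 15.4%, 0.137% to 3.82% and 0% to 1.46%. Of the 15 called differences, all 15 stayed called when arrays were scaled before the pseudocount and under the 60th percentile filter, 14 with a pseudocount of 1 and 7 with the replicate block. Signals near background limit the dimmer members, for which fold changes are compressed by the pseudocount.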
